A study of Mus musculus with 6 samples.

Results

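The data described here are the transcript levels of 10 genes best known from stem, progenitor or fetal cells (Meis1, Gata2, Zbtb46, Eya1, Kit, Igf2bp1, Igf2bp2, Igf2bp3, Lin28b and Hmga2) in regulatory T (Treg) cells with and without miR-142. The genes were chosen by symbol from the 24421 genes of the count matrix, for what they are known to do and because some had stood out in this same comparison or were marked by the study as miR-142 targets. Their differences between the groups are therefore given as a description. The cells were splenic CD4+YFP+ cells sorted from female mice of 8 to 11 weeks, 3 Foxp3Cre animals (WT) and 3 Foxp3Cre miR-142fl/fl animals (KO), with 1 RNA-seq library per mouse. Both groups carried the Cre, which is fused to YFP and driven by the Foxp3 promoter, so the deletion was directed to Foxp3-expressing cells and the WT group controls for the Cre. KO mice of this kind develop a fatal autoimmune disease, so the KO cells came from animals that differ from WT mice in more than the Treg deletion.

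MicroRNAs lower the level of mRNAs that carry a match to their seed, the bases from position 2 to 8, mostly in the 3′ UTR. miR-142 is a microRNA of blood cells whose hairpin gives a mature RNA from each arm, miR-142-5p and miR-142-3p, and the 3p arm also occurs without its first base, which moves its seed by 1 position. Meis1, Gata2 and Kit are used by haematopoietic stem and progenitor cells and are turned off as T cells mature, and Zbtb46 is a transcription factor of classical dendritic cells. Lin28b, Hmga2 and the Igf2bp genes are best known from a program of fetal cells. Lin28b blocks the maturation of let-7 microRNAs, and let-7 in turn targets Lin28b, Hmga2 and Igf2bp mRNAs.

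The mature sequences are shown because their seeds, in capitals, define the sites discussed for these genes. They are from RefSeq (GRCm38.p6), written 5′ to 3′.
miR-142a-3p: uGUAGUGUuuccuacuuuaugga
miR-142a-3p without its first base: gUAGUGUUuccuacuuuaugga
miR-142a-5p: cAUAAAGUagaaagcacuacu
let-7a-5p: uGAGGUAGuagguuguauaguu
A site is a match to bases 2 to 8 of the microRNA, to bases 2 to 7 followed by an A, or to both together, which makes an 8-base site. The letters searched were ACACTAC and CACTACA for the 3p arm, AACACTA and then ACACTAA for the 3p arm without its first base, ACTTTAT or else CTTTATA for the 5p arm, and CTACCTC along with TACCTCA for let-7. The registers of the 3p arm with and without the first base are written 3p.1 and 3p.2. The letters were searched on the sense strand of 3′ UTRs, and the let-7 seed is shared by 9 mature mouse microRNAs.

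At least 1 miR-142 site was found in the 3′ UTR of 9 of the 10 genes, and of these 6 held a site for the 3p arm in either register and 5 a site for the 5p arm. Since some of the genes were marked as targets by the study, these counts are not independent of how the genes were chosen. Among the 11124 expressed genes (those at more than 1 CPM, the count scaled to the size of its library, in at least 3 libraries) with an annotated 3′ UTR, 22.6% held a 3p site in either register and 23.5% a 5p site. The 10 genes have long 3′ UTRs, from 1538 to 6337 bases, against a median of 1185 for expressed genes. Among the 4268 expressed genes whose 3′ UTR length lay within that range, the shares were 38.0% and 38.9%. The share with a site for either arm was not worked out, so the count of 9 of the 10 genes has no background here. Let-7 sites were found in 6 of the 10 genes, against 28.9% of the genes in that length range. Lin28b, Hmga2 and the Igf2bp genes are known let-7 targets, so this count is not independent of the choice of genes either.

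Some of the sites found are given below, on the strand of the gene in GRCm38. The site is in capitals and coordinates are for the stretch shown. These sites are seed matches alone, and targeting was not tested here. All lie in 3′ UTR exons of GENCODE transcripts, exon 18 of Eya1, 15 of Igf2bp3, 10 of Meis1, 5 of Zbtb46, 16 of Igf2bp2, 5 of Lin28b and 6 of Hmga2.
Eya1, miR-142-3p.2, chr1:14169781-14169810, minus strand: tttctcatttcAACACTAAtgtattatatg
Eya1, miR-142-3p.2, chr1:14169493-14169522, minus strand: ccatcatcagaAACACTAAtgttgctctct
Igf2bp3, miR-142-3p.2, chr6:49086849-49086878, minus strand: cctgtttctctAACACTAAcatggataacc
Igf2bp3, let-7, chr6:49086776-49086805, minus strand: tttttactcaaCTACCTCAggtattcagta
Igf2bp3, miR-142-5p, chr6:49086713-49086742, minus strand: aaattttatatACTTTATAaaaactccaac
Meis1, miR-142-3p.2, chr11:18885425-18885453, minus strand: gttttgtaaccACACTAAtcaatttaaca
Meis1, miR-142-5p, chr11:18885209-18885237, minus strand: aattgctgtaaACTTTATtacctgtcaaa
Zbtb46, miR-142-5p, chr2:181388017-181388046, minus strand: atattatactgACTTTATAttaattattat
Igf2bp2, miR-142-3p.1, chr16:22059109-22059137, minus strand: aagaaaccatgACACTACcagactgcgat
Lin28b, miR-142-5p, chr10:45379789-45379818, minus strand: tggctagaaatACTTTATAtgataatattg
Hmga2, miR-142-3p.1, chr10:120361687-120361715, minus strand: acaatcaaaacACACTACtacctcttaag
Hmga2, let-7, chr10:120361681-120361709, minus strand: aaaacacactaCTACCTCttaagtcccag
Eya1 carried a pair of 8-base 3p.2 sites and none for the other seeds. Igf2bp3 carried an 8-base site for the 3p.2 register, for let-7 and for the 5p arm, all 3 within 144 bases of its 3′ UTR. In Hmga2, a 3p.1 site and a let-7 site shared a base, and the gene held 4 sites for the 3p.1 register and 7 for let-7 in all. Gata2 had no site for any of these seeds in its 3′ UTR of 1538 bases.

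**Figure D1:**
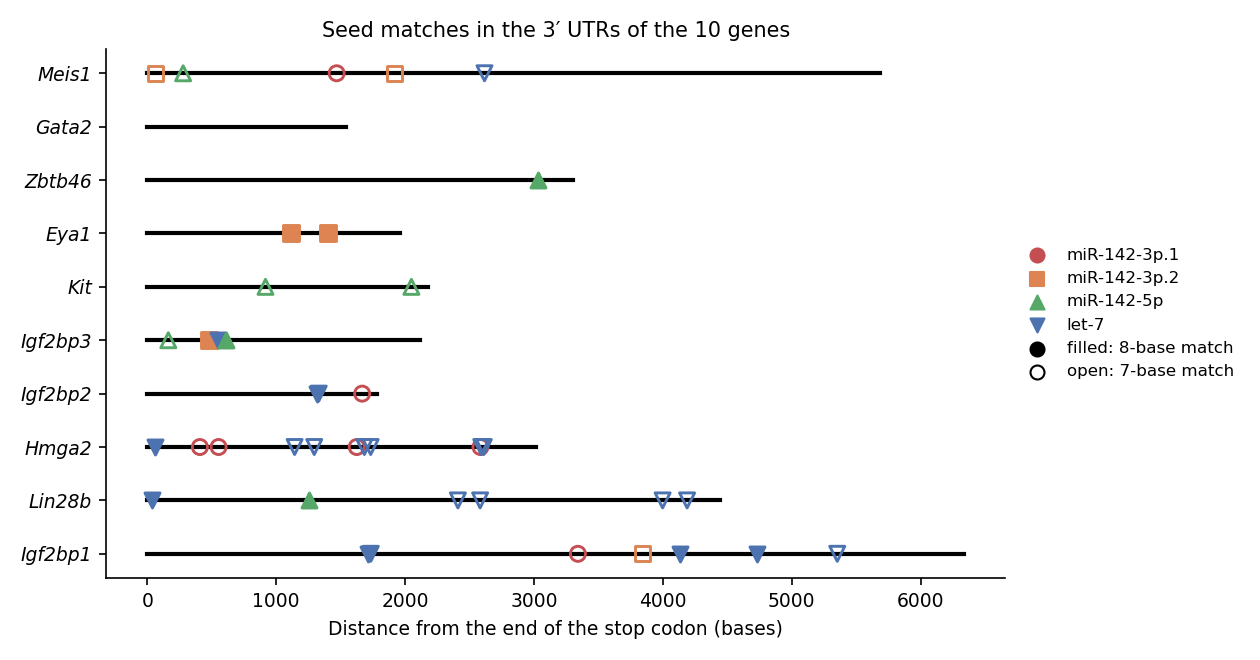
Seed matches along the 3′ UTR of each of the 10 genes, with the distance from the end of the stop codon in bases on the x axis and each line as long as the 3′ UTR. Filled symbols are 8-base matches and open symbols 7-base matches. Eya1 has a pair of filled 3p.2 squares, Igf2bp3 has 3 filled symbols close together, Lin28b, Hmga2 and Igf2bp1 carry most of the let-7 triangles, and Gata2 has none.

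This group of genes is labelled as derepressed in KO, but only some of them were higher in KO. Loss of repression by miR-142 was not tested. In 6 of the 10 (Meis1, Gata2, Zbtb46, Eya1, Kit and Igf2bp3) the lowest KO library exceeded the highest WT library, 5 of them among the genes tested, where 22.2% of all 11658 did so. Igf2bp2 overlapped between the groups with a lower KO mean, Hmga2 stayed at or under 3 counts in all 6 libraries, and Lin28b and Igf2bp1 had no read in any library. Levels are given as counts and as CPM after TMM scaling, which corrects library sizes for composition, and 3 counts in a library correspond to between 0.123 and 0.227 CPM.

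**Figure D2:**
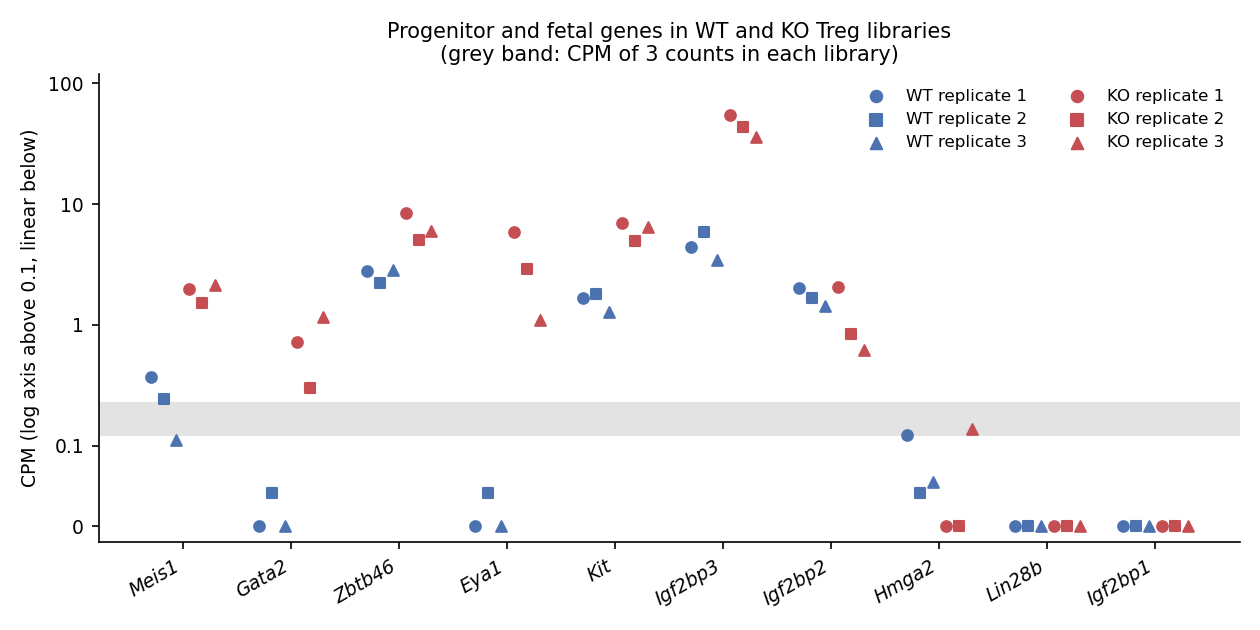
CPM of the 10 genes in each of the 3 WT (blue) and 3 KO (red) libraries, on a log axis above 0.1 and a linear one below, with the symbol shape giving the replicate number. The grey band spans 0.123 to 0.227 CPM, the level of 3 counts. Red symbols lie above all blue ones for Meis1, Gata2, Zbtb46, Eya1, Kit and Igf2bp3, and Lin28b and Igf2bp1 sit at 0 in all 6 libraries.

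Total counts ranged from 13883069 to 24042994 per library, and 6836 of the 24421 genes had no read in any of them. Across the 11658 genes with a CPM above 1 in at least 3 libraries, edgeR's quasi-likelihood (QLF) test with Benjamini-Hochberg adjustment (FDR under 0.05) called 11.6% higher and 7.27% lower in KO. In genes this was 1350 higher and 847 lower, and scaling by library size alone turned the balance round, with 1064 higher and 1201 lower. The labels were checked at the targeted locus, where Mir142b, annotated on the strand opposite to Mir142, had 147, 101 and 105 counts in WT and 7, 5 and 5 in KO libraries. Summed over 10 Treg genes, among them Foxp3 and Il2ra, the level was 6049 to 6741 CPM in WT and 8057 to 9027 CPM in KO libraries. Most of this gap was Il2ra, the IL-2 receptor alpha chain, and the sums of the other 9 genes overlapped at 5251 to 6016 CPM in WT and 5799 to 6512 CPM in KO libraries. Among these, Foxp3, Tnfrsf18 and Lrrc32 were higher in every KO library than in any WT library. Tnfrsf18 (184 against 324 CPM, FDR = 0.00877) and Lrrc32 (390 against 542 CPM, FDR = 0.0444, QLF test) were called. Foxp3 (566 against 689 CPM, FDR = 0.083, QLF test) was not. Ctla4, Ikzf2, Cd3g and Ikzf4 overlapped between the groups. Cd4 (1021 ± 19.6 against 876 ± 47.2 CPM) and Cd3e (679 ± 53.4 against 593 ± 2.59 CPM, WT against KO, SD, n = 3) had lower KO means and were not called (FDR = 0.123 and 0.178, QLF test). KO replicate 1 stood apart, with marker genes of other blood cells. In it the neutrophil list summed to 982 CPM, against at most 56.1 in any other library, and the monocyte and macrophage list to 3246 CPM, against at most 94.4. The B cell list reached 291 CPM there, against at most 41.1, and the dendritic cell list 394 CPM, against at most 119. These are bulk samples, in which more cells of a type and more RNA per cell cannot be told apart.

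**Figure D3:**
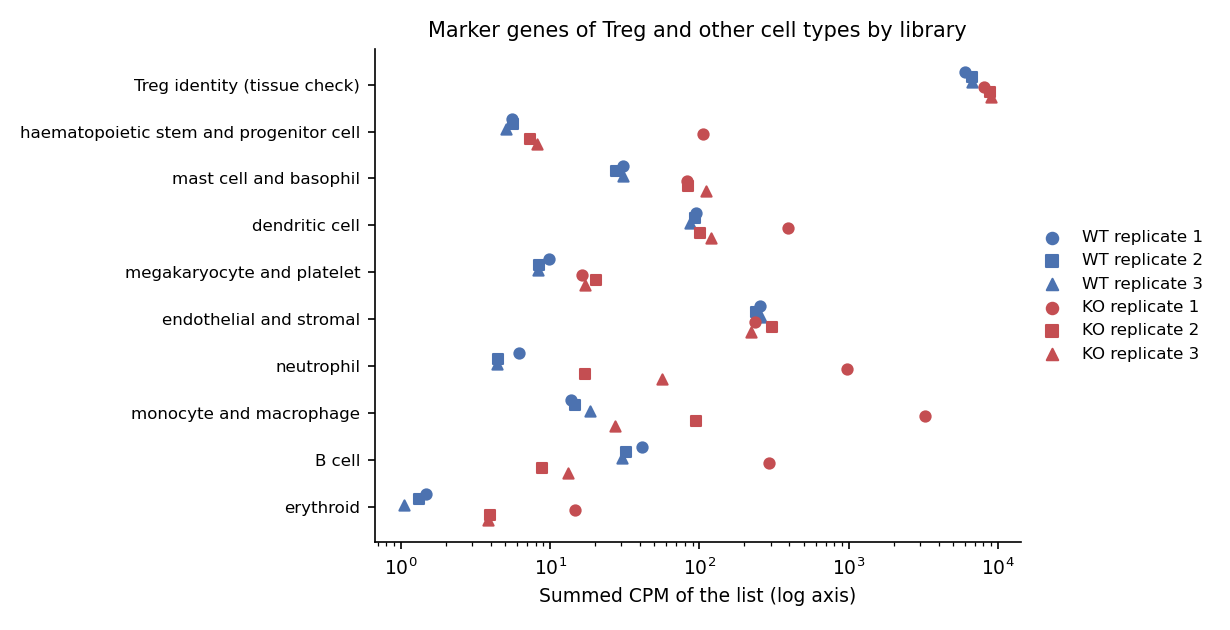
Summed CPM of each list of marker genes in the 6 libraries, on a log axis, with WT in blue, KO in red and the symbol shape giving the replicate number. KO replicate 1 (red circle) lies far to the right for the neutrophil, monocyte and macrophage, B cell, dendritic cell and stem and progenitor lists, while the mast cell and basophil list is 83.0 CPM or more in all 3 KO libraries and 30.9 or less in WT libraries.

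Of the 10 genes, 6 passed the filter on low values (Meis1, Zbtb46, Eya1, Kit, Igf2bp2 and Igf2bp3), and the QLF test called 5 of them higher in KO, beside 11.6% of all genes tested, and 0 lower, beside 7.27%. Because the genes were chosen from this contrast, these counts carry no further weight, and no p-value is given for a single gene of the 10. Meis1 and Eya1 passed the filter through their KO libraries alone, so a difference was built into their passing. Gata2, Hmga2, Lin28b and Igf2bp1 did not pass.

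Meis1 (chr11:18879817-19018985, minus strand) encodes a homeodomain protein of the TALE class that maintains haematopoietic stem cells. It had 6, 6 and 2 counts in WT replicates 1 to 3 and 36, 20 and 31 in KO replicates 1 to 3. This corresponds to 0.370, 0.246 and 0.111 CPM in WT and 1.998, 1.51 and 2.12 CPM in KO libraries. All KO libraries were close to each other and well above the WT libraries, of which replicate 3 lay under the floor of 3 counts. The KO mean was 1.88 ± 0.321 CPM and the WT mean 0.242 ± 0.130 CPM (SD, n = 3), a log2 fold change of 2.94 (SE 0.42), or 7.67-fold. KO replicate 1 was 1.10 times the mean of the other KO libraries. An annotated antisense gene, Gm16140, shares 896 exon bases with Meis1, and since the reads were counted without strand, reads from the pair cannot be told apart. Gm37818, an unclassified transcript on the strand of Meis1, shares 1029 exon bases with it.

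Gata2 (chr6:88193891-88207032, plus strand), a zinc finger factor of stem cells, mast cells and basophils, had 0, 1 and 0 counts in WT and 13, 4 and 17 counts in KO libraries. In CPM the KO libraries were at 0.722, 0.303 and 1.16, and all 3 exceeded the floor, which no WT library did. With a total of 1 count in WT against 34 in KO, the ratio of counts scaled to library size was 43.6, with an exact 95% counting interval of 7.31 to 1770. Without KO replicate 1 the ratio was 44.3 (7.13 to 1833). Some genes of immature myeloid cells were also higher in KO libraries. Mpo, the peroxidase of granulocyte precursors, was at 0.801, 0.410 and 0.0553 CPM in WT and at 16.8, 6.21 and 32.2 CPM in KO libraries, which put KO replicate 3 highest and KO replicate 2 lowest, as for Gata2. Prtn3, a protease of the same precursors, was at most 0.246 CPM in WT libraries and at 4.11, 0.530 and 7.19 CPM in KO libraries, in the same order. Elane, another such protease, was at most 0.185 CPM in WT libraries and highest in KO replicate 1, at 7.49, 1.21 and 4.31 CPM. These genes were singled out after their values were seen and do not stand for the neutrophil list, of which 11 of 13 genes were highest in KO replicate 1. The basophil protease Mcpt8 was at 0 in all WT libraries and in KO replicate 2, at 0.944 CPM in KO replicate 1 and at 0.821 CPM in KO replicate 3. Hdc, the histamine-forming enzyme, was at 0.739, 0.410 and 0.885 CPM in WT and at 11.5, 1.06 and 3.76 CPM in KO libraries (FDR = 0.0431, QLF test), whereas Cpa3 (0.743 ± 0.117 against 0.364 ± 0.269 CPM) and Cd200r3 (0.484 ± 0.433 against 0.147 ± 0.0769 CPM, WT against KO, SD, n = 3), which were not tested, overlapped between the groups with lower KO means. Hdc passed the filter through its KO libraries alone, so a difference was built into its passing and its FDR is a description. The mast cell markers Mcpt4, Cma1, Tpsb2 and Tpsab1 were at 0 in all 6 libraries. Over all 13 mast cell and basophil markers, 6 were at or under the floor throughout, and the sum was 27.7 to 30.9 CPM in WT and 83.0, 83.8 and 111 CPM in KO libraries, of which Gata1, expressed in the WT libraries as well, made up most. The part of myeloid precursors, mast cells or basophils in the reads of Gata2, Kit and Meis1 was not tested.

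Zbtb46 (chr2:181387762-181459426, minus strand), a BTB zinc finger factor, had 45, 54 and 51 counts in WT and 151, 67 and 88 in KO libraries. The levels were 2.77, 2.21 and 2.82 CPM in WT and 8.38, 5.07 and 6.02 CPM in KO libraries, without overlap. The log2 fold change was 1.32 (SE 0.26), or 2.503-fold. KO replicate 1, the library with dendritic cell transcripts, held the highest value, 1.51 times the mean of the other KO libraries. The dendritic cell markers Itgax, Clec9a and Siglech were at 126, 5.44 and 9.33 CPM in that library and at 0.227 CPM or less in KO replicates 2 and 3, and all 13 dendritic cell markers were highest in KO replicate 1. Without it the log2 fold change of Zbtb46 was 1.10, and KO replicates 2 and 3 stayed above each WT library.

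Eya1 (chr1:14168954-14310235, minus strand), a transcriptional coactivator and phosphatase that works with homeodomain proteins of the sine oculis family in the embryo, had 0, 1 and 0 counts in WT and 106, 38 and 16 in KO libraries. The KO values of 5.88, 2.88 and 1.10 CPM spread over more than 5-fold, while all WT libraries were under the floor. The ratio of scaled counts was 205, with an exact 95% counting interval of 36.3 to 8144 that covers counting error only. KO replicate 1 held 2.96 times the mean of the other KO libraries. The ratio without it was 114 (19.6 to 4583).

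Kit (chr5:75574916-75656722, plus strand), the receptor for stem cell factor on progenitors and mast cells, had 27, 44 and 23 counts in WT and 125, 65 and 95 in KO libraries. Levels were 1.66, 1.80 and 1.27 CPM in WT and 6.94, 4.92 and 6.50 CPM in KO libraries. The means of 1.58 ± 0.275 and 6.12 ± 1.06 CPM (SD, n = 3) gave a log2 fold change of 1.95 (SE 0.25), or 3.86-fold. Its KO libraries lay closer together than those of Eya1, and KO replicate 1 was 1.22 times the mean of the others. Among 15 markers of stem and progenitor cells, Mecom, Tek, Fgd5, Hoxb5 and Robo4 were at or under the floor in all libraries. Cd34 was at 0.0616, 0 and 0 CPM in WT and at 0.278, 0.151 and 0.684 CPM in KO libraries. The list summed to 5.03 to 5.62 CPM in WT, 106 CPM in KO replicate 1 and 7.34 and 8.21 CPM in KO replicates 2 and 3. Most of the value in KO replicate 1 came from Csf3r, at 60.6 CPM, and Cd93, at 27.9 CPM, which neutrophils and macrophages also express.

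Igf2bp3 (chr6:49085223-49214957, minus strand), an RNA-binding protein of fetal tissues that stabilizes and localizes mRNAs, was the most abundant of the 10 genes in KO. It had 72, 142 and 62 counts in WT and 985, 569 and 526 in KO libraries. In CPM these were 4.43, 5.82 and 3.43 in WT and 54.7, 43.1 and 36.0 in KO libraries, with the lowest KO library well above the highest WT library. The means of 4.56 ± 1.20 and 44.6 ± 9.43 CPM (SD, n = 3) gave a log2 fold change of 3.28 (SE 0.24), or 9.71-fold. Malsu1, a gene on the opposite strand, shares 1529 exon bases with Igf2bp3, and counting ignored strand. Malsu1 had 9.79, 10.4 and 11.1 CPM in WT and 11.7, 19.2 and 13.3 CPM in KO libraries. Each KO library was thus above each WT library for Malsu1, but its log2 fold change of 0.49 (SE 0.21) was not called (FDR = 0.142, QLF test). Malsu1 was highest in KO replicate 2 and Igf2bp3 in KO replicate 1. The part of the shared bases in the counts of Igf2bp3 was not tested.

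The other members of the Igf2bp family did not follow Igf2bp3. Igf2bp2 (chr16:22059009-22163299, minus strand) had 33, 41 and 26 counts in WT and 37, 11 and 9 in KO libraries. It was at 2.03, 1.68 and 1.44 CPM in WT, and at 2.05, 0.833 and 0.616 CPM in KO libraries, so that KO replicate 1 matched the highest WT library and the other KO libraries lay under all WT libraries. The log2 fold change was -0.52 (SE 0.46) and was not called. Without KO replicate 1 it was -1.24, and Igf2bp2 was called lower in KO in that fit. Igf2bp1 (chr11:95957163-96005940, minus strand) had 0 counts in every library. As an approximate limit, 3 counts over a whole group would be 0.0511 CPM for the WT and 0.0655 CPM for the KO libraries. This limit covers counting error only.

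Lin28b and Hmga2, the other fetal genes, showed no difference that these depths could detect. Lin28b (chr10:45376620-45486395, minus strand) had 0 counts in all 6 libraries, with the same limits of 0.0511 and 0.0655 CPM. Its paralogue Lin28a, which also blocks let-7 maturation, had 13 counts in KO replicate 1 and 0 in the other 5 libraries. Hmga2 (chr10:120361275-120476469, minus strand), a chromatin protein of embryonic and stem cells, had 2, 1 and 1 counts in WT and 0, 0 and 2 in KO libraries. Both groups were under the floor and no fold is given. Hmga2-ps1, a pseudogene copy that could take or lend Hmga2 reads, had 4, 8 and 11 counts in WT and 33, 7 and 8 in KO libraries, with overlap between the groups.

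Per kilobase of exon, the levels of the genes can be set side by side. In WT libraries Igf2bp3 was highest at 0.559 ± 0.147 CPM per kb, followed by Zbtb46 at 0.306 ± 0.0397, Igf2bp2 at 0.232 ± 0.0404, Kit at 0.177 ± 0.0309 and Meis1 at 0.0230 ± 0.0123 CPM per kb (SD, n = 3). The ranges of Igf2bp2 and Kit overlapped, as did those of Zbtb46 and Igf2bp2. Eya1, Gata2 and Hmga2 were at 0.0182 CPM per kb or less in each WT library. In KO libraries the order was Igf2bp3 at 5.46 ± 1.16, Zbtb46 at 0.763 ± 0.200, Kit at 0.687 ± 0.119, Eya1 at 0.421 ± 0.310, Meis1 at 0.178 ± 0.0305, Igf2bp2 at 0.158 ± 0.105 and Gata2 at 0.135 ± 0.0797 CPM per kb. Igf2bp3 stood apart from all others, whereas Zbtb46 and Kit, and likewise Meis1, Igf2bp2 and Gata2, did not differ from each other beyond their spread. The KO range of Eya1 overlapped with those of both of these sets. Apart from Igf2bp3 these were low levels among the genes tested, even in KO. Of the genes tested, 40.2% had a lower KO level per kb than Igf2bp3, 9.23% than Zbtb46, 8.36% than Kit, 4.39% than Eya1 and 1.10% than Meis1, while Foxp3 was at 150.6 ± 12.0 CPM per kb.

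The fold changes of the genes expressed in both groups kept their direction when single libraries were left out. With the same genes fitted, the log2 fold change of Igf2bp3 lay between 3.10 and 3.50, that of Meis1 between 2.62 and 3.29, that of Kit between 1.82 and 2.08 and that of Zbtb46 between 1.10 and 1.47. Igf2bp2 moved most, from -1.24 without KO replicate 1 to -0.22 without KO replicate 3.

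**Figure D4:**
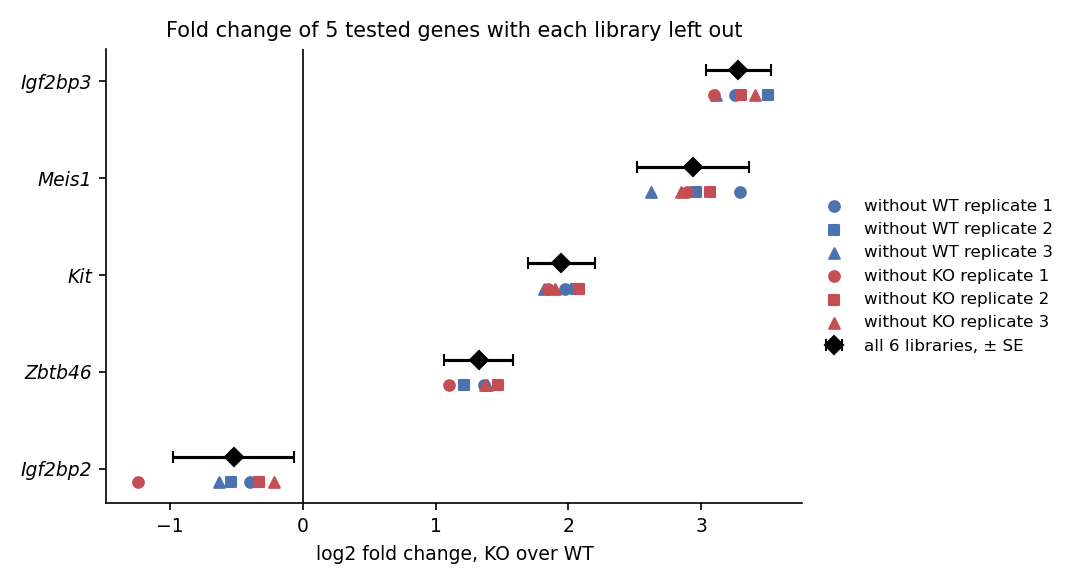
Log2 fold change, KO over WT, of the 5 genes that were tested and had reads in every library. Diamonds with bars give the value from all 6 libraries ± SE, and the smaller symbols give the value when the library named in the legend was left out and the same genes were fitted. Values of Igf2bp3, Meis1, Kit and Zbtb46 stay above 1, and Igf2bp2 falls to -1.24 without KO replicate 1.

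The tested genes with the pattern nearest over the 6 libraries were sought for the 3 most abundant of these genes, measured as the root mean square distance between log2(CPM + 0.5) values centred on their mean. The nearest to Igf2bp3 were Adam9 (distance 0.177) and Ermn (0.260). Ermn was at 0, 0.123 and 0.0553 CPM in WT and 7.72, 3.63 and 3.29 CPM in KO libraries, so its WT values were at or under the floor and its distance rests on the 0.5 added. Adam9, a membrane metalloprotease, was at 11.6, 14.2 and 11.3 CPM in WT and 120, 101 and 107 CPM in KO libraries. Zbtb46 was nearest to Cdkn2c (0.0534), a cell cycle inhibitor at 11.02, 9.84 and 11.5 CPM in WT and 30.9, 21.1 and 22.7 CPM in KO libraries, and to Agpat4 (0.0778). Kit was nearest to Tsen34 (0.0852), a subunit of the tRNA splicing endonuclease, and to the interferon-induced GTPase Gbp3 (0.0998), at 88.6, 94.9 and 75.7 CPM in WT and 369, 255 and 320 CPM in KO libraries. With 6 libraries in a pair of groups, any gene with a like difference between the groups comes out near.

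The genes that work with the 10 were taken from lists made by function (binding partners, ligands, paralogues and pathway members). The lists were drawn up with earlier results of these data known, so their counts are a description and not independent evidence. Of 172 such genes in the matrix, 125 were tested, and the QLF test called 19 higher (15.2%, beside 11.6% of all genes tested) and 12 lower (9.60%, beside 7.27%). The median log2 fold change was 0.0004, against 0.016 over all genes tested. Without KO replicate 1 it called 22 higher and 8 lower, and 25 of the 31 called genes kept their call and direction. All 31 kept their direction under each of 3 other scalings. Some of the genes called higher passed the filter through their KO libraries alone, so a difference was built into their passing.

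Among the TALE and HOX partners of Meis1, 9 of 22 were tested, 1 was called higher and 1 lower. Pknox1, a relative of Meis1, fell from 86.5 ± 5.83 to 67.2 ± 4.79 CPM (SD, n = 3), a log2 fold change of -0.37 (SE 0.09, FDR = 0.0363, QLF test). Hoxa9, a stem cell partner of Meis1, had no count in WT and 9, 1 and 5 counts in KO libraries and was not tested.

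The tested relatives and partners of Eya1 were lower in KO. Of 11 genes of the EYA, sine oculis and DACH families 3 were tested, and all 3 were called lower. Eya2, a paralogue, fell from 14.2, 10.7 and 14.2 CPM in WT to 4.05, 6.28 and 5.54 CPM in KO libraries, a log2 fold change of -1.30 (SE 0.23, FDR = 0.00989, QLF test). Six5, a sine oculis homeodomain factor, fell by 1.01 on the log2 scale (SE 0.28, FDR = 0.0450), and Eya3 by 0.44 (SE 0.11, FDR = 0.0346, QLF test). Without KO replicate 1, Eya2 and Six5 were still called and Eya3 was not.

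For the Kit pathway, 20 of 23 genes were tested, with 2 called higher and 3 lower (3 and 1 without KO replicate 1). Gab2, the adaptor that links Kit to PI3 kinase, was at 0.739, 0.656 and 1.22 CPM in WT and 27.1, 12.6 and 9.51 CPM in KO libraries, without overlap, and its log2 fold change was 4.24 (SE 0.49, FDR = 0.00255, QLF test). Of its WT libraries only replicate 3 was above 1 CPM. Gab2 thus needed its KO libraries to pass the filter, and its FDR is a description. The kinase gene Src rose from 19.6 to 36.8 CPM on average, by 0.91 on the log2 scale (SE 0.13, FDR = 0.00551, QLF test). Lower in KO were Cbl, a ubiquitin ligase that marks the activated receptor for breakdown (log2 fold change -0.50, FDR = 0.0275), the kinase Fyn (-0.39, FDR = 0.0397, QLF test; not called without KO replicate 1) and 1 other gene. The Kit ligand gene, Kitl, had 0, 0 and 2 counts in WT and 49, 17 and 6 in KO libraries and was not tested.

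GATA partners and stem cell transcription factors had the highest share of calls upwards of the 8 lists, with 6 of 16 tested genes called higher and 2 called lower (6 and 1 without KO replicate 1), at a median of 0.40 on the log2 scale. Gata1, the erythroid and mast cell paralogue of Gata2, was at 28.9, 25.5 and 29.2 CPM in WT and 67.4, 82.4 and 105.5 CPM in KO libraries, a log2 fold change of 1.61 (SE 0.17, FDR = 0.00182, QLF test). KO replicate 1 was the lowest of the KO libraries for this gene. Myb, a factor of immature blood cells and cycling lymphocytes, rose from 65.5 ± 3.37 to 273 ± 52.7 CPM (SD, n = 3), 4.17-fold (FDR = 0.00064, QLF test). Lmo2, which bridges GATA and TAL1 proteins, was at 0.862, 1.02 and 0.553 CPM in WT and 21.2, 3.63 and 6.09 CPM in KO libraries (FDR = 0.0146, QLF test). It was higher in all KO libraries, with KO replicate 1 far above the others. Of its WT libraries only replicate 2 was above 1 CPM. Lmo2 thus needed its KO libraries to pass the filter, and its FDR is a description. Runx3 rose by 1.06 on the log2 scale (SE 0.13, FDR = 0.00324, QLF test). Gata3, the GATA factor of T cells, had a WT mean of 277 ± 48.1 CPM and a KO mean of 258 ± 45.2 CPM (SD, n = 3), a gap within the spread of either group (FDR = 0.700, QLF test). Tal1 had 1, 4 and 0 counts in WT and 32, 13 and 37 in KO libraries and was not tested.

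Genes of the earliest thymocytes gave 4 calls upwards and 0 downwards (5 and 1 without KO replicate 1) among 15 tested. Hes1, a target of Notch signalling, was at 0.0616, 0.0820 and 0.775 CPM in WT and 7.27, 7.95 and 6.71 CPM in KO libraries, higher by 4.59 on the log2 scale (SE 0.71, FDR = 0.00658, QLF test). Its KO libraries were nearly equal, and KO replicate 1 was not the highest. Mef2c had 1, 1 and 2 counts in WT and 473, 28 and 25 in KO libraries, and Cd24a was at 1.23, 2.21 and 2.99 CPM in WT and 29.9, 6.36 and 7.66 CPM in KO libraries. Lmo2, given above, is on this list too. Mef2c and Cd24a were called (FDR = 0.0188 and 0.0290, QLF test), both were highest in KO replicate 1, which also held B cell and macrophage transcripts, and both were still called without it. Hes1 and Mef2c passed the filter on low values through their KO libraries alone. A difference was therefore built into their passing, and their FDR values are a description. The recombination genes Rag1 and Rag2 and the pre-T cell receptor gene Ptcra, which mark thymocytes, had at most 4 counts in any library. Dntt, on the same list, was above the floor in every library and was not tested. It had 13, 9 and 20 counts in WT and 17, 18 and 14 in KO libraries, with overlap between the groups.

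In the Lin28, let-7 and fetal growth list, 25 of 33 genes were tested, 5 were called higher and 0 lower (6 and 1 without KO replicate 1). Cdk6, a cell cycle kinase and let-7 target, rose from 34.3 ± 1.62 to 99.7 ± 9.95 CPM (SD, n = 3), 2.91-fold (FDR = 0.000527, QLF test). Plag1, a fetal growth factor regulator, was at 3.08, 2.71 and 3.60 CPM in WT and 8.10, 13.6 and 5.54 CPM in KO libraries (log2 fold change 1.53, SE 0.34, FDR = 0.0233, QLF test). Prdm1, the effector cell repressor, and E2f2 were the other genes named by their size, with log2 fold changes of 1.13 (FDR = 0.0280) and 0.66 (FDR = 0.00730, QLF test). Igf2, the growth factor mRNA for which the Igf2bp proteins are named, was at 1.11, 1.11 and 0.885 CPM in WT and 1.22, 1.59 and 2.12 CPM in KO libraries and was not called (FDR = 0.177, QLF test).

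Partners of the Igf2bp proteins on mRNA, such as m6A readers and writers, gave 1 call upwards and 0 downwards (1 and 1 without KO replicate 1) among 24 tested genes. Their median log2 fold change was -0.06. The gene called was Stau1, which binds double-stranded RNA, which went from 95.9 ± 1.83 to 169 ± 5.78 CPM (SD, n = 3), 1.77-fold higher in KO (FDR = 0.00115, QLF test). BTB zinc finger relatives of Zbtb46 gave 1 call upwards and 3 downwards (1 and 1 without KO replicate 1) among 18 tested. Bcl6, the repressor of follicular T cells, was at 57.1, 75.6 and 69.4 CPM in WT and 33.8, 28.4 and 21.8 CPM in KO libraries, a log2 fold change of -1.27 (SE 0.18, FDR = 0.00497, QLF test). Zbtb18 rose by 0.72 on the log2 scale (FDR = 0.0105, QLF test). Zbtb4 and Zbtb1 changed by -0.42 and -0.36 (FDR = 0.0278 and 0.0397, QLF test), calls that were lost without KO replicate 1.

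**Figure D5:**
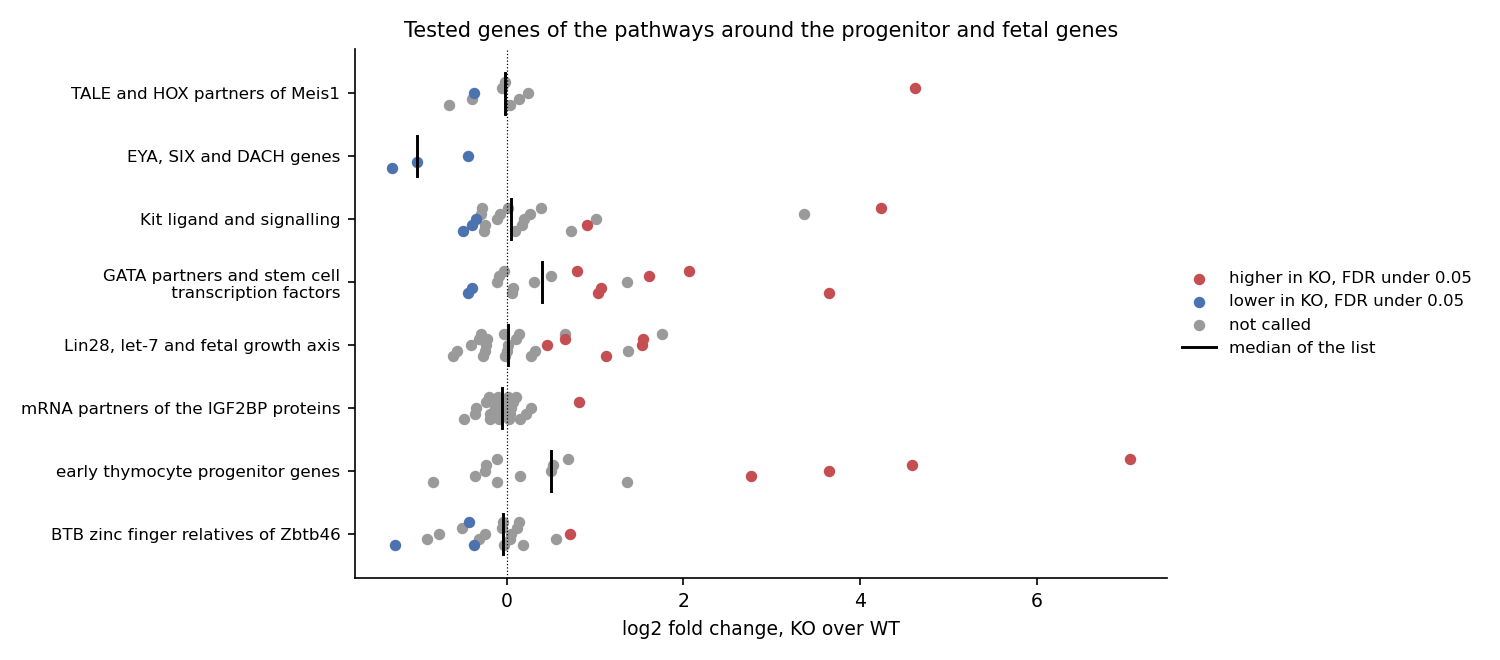
Log2 fold change, KO over WT, of each tested gene in the 8 lists of pathway members, with genes called higher in red, called lower in blue, not called in grey and the median of each list as a black bar. All 3 genes of the EYA, sine oculis and DACH list lie to the left of 0, while the GATA and stem cell factor list and the early thymocyte list have medians of 0.40 and 0.50.

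Since 5 genes related to let-7 are among the 10, the readout of let-7 itself was looked at in all genes with a site for it. Of the 1938 tested genes with a let-7 site in the 3′ UTR, 12.1% were called higher and 7.64% lower, with a median log2 fold change of 0.0053. Over the 11124 tested genes with any annotated 3′ UTR the values were 11.9%, 7.17% and 0.021. Genes with an 8-base let-7 site, 422 in number, were called higher in 10.2% and lower in 6.64%, with a median of 0.017. The let-7 site genes lay close to the background in both directions, and no test of the set was made.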

How the data were processed

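CD4+YFP+ splenic Treg cells of 3 WT and 3 KO female mice were profiled by RNA-seq (51-base single-end reads, an unstranded TruSeq kit), with 1 library per mouse. The authors aligned the reads with HISAT to mm10, assigned them to genes with featureCounts, ignoring strand, and deposited the raw whole-number counts, not normalized. Tool versions upstream are not given in the sources used here. With 3 mice against 3 the smallest p of an exact two-sided permutation test is 0.1, so tests rest on the model across all genes.

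Genes with CPM above 1 in at least 3 of the 6 libraries (11658) entered the test, run in edgeR 4.0.16 (R 4.3.3) using TMM normalization and the quasi-likelihood F test, and called at a Benjamini-Hochberg FDR under 0.05. The common biological coefficient of variation was 0.212. CPM values use TMM-scaled library sizes. A floor of 3 counts was used, and ratios against 1 WT count carry exact (Clopper-Pearson) 95% intervals from scipy 1.17.1 that cover counting error only. The fit and the site search were tested on simulated data.

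Positions and 3′ UTRs are those of GENCODE vM21 (GRCm38, the build that mm10 names), with 23376 genes matched by symbol, 669 by synonym and 376 unmatched. Sites were searched in the longest annotated 3′ UTR of each gene.

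The 10 genes and the gene lists were chosen with earlier results of these data known. Genes named from the lists were those called, at most the 4 with the largest absolute log2 fold change per list, with others only as background for one of the 10. For the 3 of the 10 with the highest mean CPM, the 2 nearest genes were named. Alternatives covered scaling, DESeq2 1.42.0, filters, thresholds, 8-base sites, a block on replicate number and leaving out each library. Fits that kept the genes of the full set when a library was left out were chosen after seeing the data. No column of the matrix was left out. Some single genes and sequences are not reported here.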

Additional observations from a re-analysis of the deposited data

How the results depend on the processing

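The direction of Meis1, Kit, Zbtb46, Eya1, Igf2bp3 and Igf2bp2 was the same under every alternative run, and 93 of their 102 log2 fold changes moved by less than the spread between replicates. The number of the 10 genes called higher was 5 in most settings, 6 with no filter (Gata2 added) and 4 at an FDR under 0.01 (Zbtb46 lost). It lay between 3 and 4 when a library was left out and genes were refiltered, since Meis1 and Eya1 drop under the filter when any KO library is left out and Zbtb46 loses its call when any WT library is, and between 4 and 5 with the genes of the full set. The number called lower was between 0 and 1, the 1 being Igf2bp2 without KO replicate 1. Over all genes, leaving out a library gave 483 to 1403 higher and 208 to 937 lower calls (497 to 1519 and 236 to 973 with the genes of the full set), with the lowest values without WT replicate 2. An FDR under 0.01 gave 490 and 196. Pathway genes called ranged from 11 to 19 higher and 2 to 16 lower (11 to 22 and 2 to 17 with the genes of the full set), and at an FDR under 0.01 there were 11 and 2. DESeq2 called 21 and scaling by library size alone 19 of them lower, against 12. Scaling by library size alone moved the median of all genes by -0.078.

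For genes with a let-7 site, the share called higher was between 4.46% and 12.5% and the share called lower between 2.08% and 9.48% with a library left out (4.44% to 13.2% and 2.27% to 9.75% with the genes of the full set). These shares were 7.64% and 4.41% with no filter and 4.59% and 1.81% at an FDR under 0.01, and DESeq2 called 11.7% lower. Their median log2 fold change was -0.072 with scaling by library size alone. The cause of these shifts was not tested beyond the fewer genes or samples in each fit.

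Replicate numbers gave no sign of pairing the samples: deviations of same-numbered WT and KO libraries from their group means correlated at 0.073, -0.012 and -0.19. With 3 libraries per group, such values cannot show that the mice were unpaired. With the replicate block, 1061 genes were called higher and 545 lower, 18 and 7 of the pathway genes, and 5 of the 10 genes were called higher as without it. Depth limits Gata2 and Eya1, whose ratios rest on 1 WT read each, Hmga2, with at most 2 counts in any library, and Lin28b and Igf2bp1, with none.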

Other observations

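The marker lists not used beside a gene above gave these values. The 9 megakaryocyte and platelet genes summed to 8.30 to 9.85 CPM in WT and 16.3, 20.4 and 17.2 CPM in KO replicates 1, 2 and 3. Most of this came from Itga2b, at 3.43 to 3.48 CPM in WT and 4.72 to 6.36 CPM in KO libraries, and Gp1ba, at 4.65 to 6.28 CPM in WT and 8.33 to 13.6 CPM in KO libraries, while Gp6 was at or under the floor in all. The 8 erythroid genes summed to 1.05 to 1.48 CPM in WT and 14.8, 3.94 and 3.83 CPM in KO replicates 1, 2 and 3, with all 4 globin genes at 0 throughout. Klf1, an erythroid transcription factor, was at 0.0616, 0.123 and 0.111 CPM in WT and 1.39, 1.14 and 1.64 CPM in KO libraries. Epor, the erythropoietin receptor, was at 0.166 to 0.370 CPM in WT and 0.984 to 1.39 CPM in KO libraries. The endothelial and stromal list overlapped between the groups, at 240 to 257 CPM in WT and 222 to 305 CPM in KO libraries, nearly all of it Pecam1.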
